A study of Mus musculus with 2 samples.

Results

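MHC class II antigen presentation was followed through 6 genes in healing mouse femurs, *H2-Aa*, *H2-Ab1*, *H2-Eb1*, *Cd74*, *H2-DMa* and *Ciita*. The genes were chosen by name, with earlier results of these data known, and make up 6 of the 19465 genes counted. Their counts beside those of all genes are therefore descriptive. All 6 were present in both count matrices, and all 6 reached the minimum of 10 unique molecular identifiers (UMIs, the tags that mark single captured probe molecules) in each of the 9 comparisons made. The data are 2 longitudinal sections of paraffin-embedded femur, 1 from a Control mouse and 1 from a Loaded mouse, measured with a probe-based Visium assay that counts transcripts in a grid of spots. Both mice were females of the bone cell reporter (BCR) line, which carries fluorescent tags on *Ibsp* (eGFP) and *Acp5* (mCherry), so that the reporter alleles are shared by both groups. Both received a mid-shaft femoral osteotomy under an external fixator at 12 weeks of age, had bridged the defect by week 3, and were killed at 17 weeks of age. The Loaded mouse received cyclic mechanical loading 3 times per week from week 3 to week 5 after surgery, and the Control mouse received sham loading. Each group is 1 animal and 1 section, so that no p-value can be given. A difference between the sections cannot be told apart from a difference between these mice, their sections or the way they were cut.

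MHC class II molecules sit on the surface of antigen-presenting cells (macrophages, dendritic cells and B cells) and show peptides from engulfed proteins to CD4+ T cells. An α and a β chain are assembled in the endoplasmic reticulum around the invariant chain, which blocks the peptide groove and steers the complex to endosomes. Proteases there cut the invariant chain down, and the H2-DM editor exchanges its last fragment for peptide. Transcription of the whole set is switched on by the class II transactivator, which does not bind DNA itself and is recruited to a conserved X and Y box arrangement in the promoters. In fracture healing, macrophages are known residents of the callus, the periosteum and the marrow.

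The 3 chain genes lie side by side in the major histocompatibility complex. On GRCm38 (the mm10 build that the submitters' processing notes name; GENCODE M21 annotation), *H2-Ab1* (ENSMUSG00000073421) is at chr17:34257689-34269419 on the plus strand. *H2-Aa* (ENSMUSG00000036594) is at chr17:34282744-34287823 on the minus strand, and *H2-Eb1* (ENSMUSG00000060586) at chr17:34305867-34316674 on the plus strand, so that these 3 genes span 58986 bases. *H2-DMa* (ENSMUSG00000037649) is at chr17:34119541-34139101 in the same complex. *Ciita* (ENSMUSG00000022504) at chr16:10480059-10528418 and *Cd74* (ENSMUSG00000024610) lie outside it.

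The promoters of 2 chain genes are shown because they carry the X and Y box arrangement through which the pathway's genes are switched on together. Each stretch is the 100 bases before the transcript start, 5′ to 3′ on the gene's strand (RefSeq, GRCm38.p6), with GCAAC (the start of the X box) and TGATTGG (the Y box, an inverted CCAAT) in capitals. The first is at chr17:34287824-34287923 (minus strand) and the second at chr17:34305767-34305866 (plus strand).
H2-Aa: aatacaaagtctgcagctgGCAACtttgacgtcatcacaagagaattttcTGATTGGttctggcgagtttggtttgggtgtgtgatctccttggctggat
H2-Eb1: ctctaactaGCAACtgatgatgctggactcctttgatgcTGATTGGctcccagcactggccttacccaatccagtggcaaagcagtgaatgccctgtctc

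The starts of both motifs lay 31 bases apart in *H2-Aa* and 30 bases apart in *H2-Eb1*. These letters were chosen after the promoters were read. Over the 32851 promoter windows of 300 bases in the table, searched on both strands, GCAAC occurred in 35.2%, TGATTGG in 7.82%, and GCAAC with TGATTGG starting 20 to 40 bases after it in 0.204% (67 windows). Of the 6 genes followed, 3 had a window, and the pair was found in *H2-Aa* and *H2-Eb1* and not in either window of *H2-DMa*. Among 5 further class II genes, all with a window, it was found in *H2-Eb2*, *H2-Oa* and *H2-Ob*, and among the 7 MHC class I genes with a window it was found in 0. A match describes these letters only.

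Space Ranger found 1962 spots under tissue in the Control section and 1436 in the Loaded section, with 9002147 and 4910716 UMIs, of which 1898 and 1431 spots held at least 500 UMIs and 250 genes and were kept. Bone spots are those whose barcodes the study lists as bone (131 Control, 146 Loaded), the rim is every other spot within 250 µm of the nearest bone spot (253 and 264), and the rest is what remains (1514 and 1021). To give a level, all UMIs of a gene in a region were added up and set over the sum of that region's scran size factors, which gives normalized counts per spot. A spot covers several cells of mixed types, so that fewer cells of a type and less RNA per cell cannot be told apart. Probes of different genes capture with different efficiency, so that levels are compared within a gene and not between genes. Intervals are exact, at 95%, and cover counting error only. Where the spread within a section is given, each region was divided into 4 blocks. Bone spots carried their label's markers: the 8 osteoclast genes summed to 12.4 normalized counts per spot in Control bone against 7.31 in the rim, and to 15.3 against 6.52 in the Loaded section. Skeletal muscle genes took 34.2% of the UMIs of the Control rest and 21.9% of the Loaded rest, 20.7% and 13.0% of the rim, and 17.7% and 9.17% of bone.

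The 6 genes were counted 5846 times under the Control tissue and 8611 times under the Loaded tissue, from the smaller library. Their summed level was 4.22 normalized counts per spot in Control bone (95% interval 3.92 to 4.54), 4.24 in the Control rim (4.01 to 4.48) and 2.58 in the Control rest (2.50 to 2.66). The Loaded section gave 6.85 in bone (6.40 to 7.31), 9.21 in the rim (8.88 to 9.55) and 5.22 in the rest (5.07 to 5.37). Each Loaded region was above the same Control region. Bone and rim were level in the Control section, and the rim was the highest region in the Loaded section. By block, the highest Loaded level lay in the rest, at 16.3 (19 spots), against 12.2 in the highest rim block. Both were block B2 of their region. The map of both sections shows a bright band along the outer face of the Loaded bone.

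**Figure D1:**
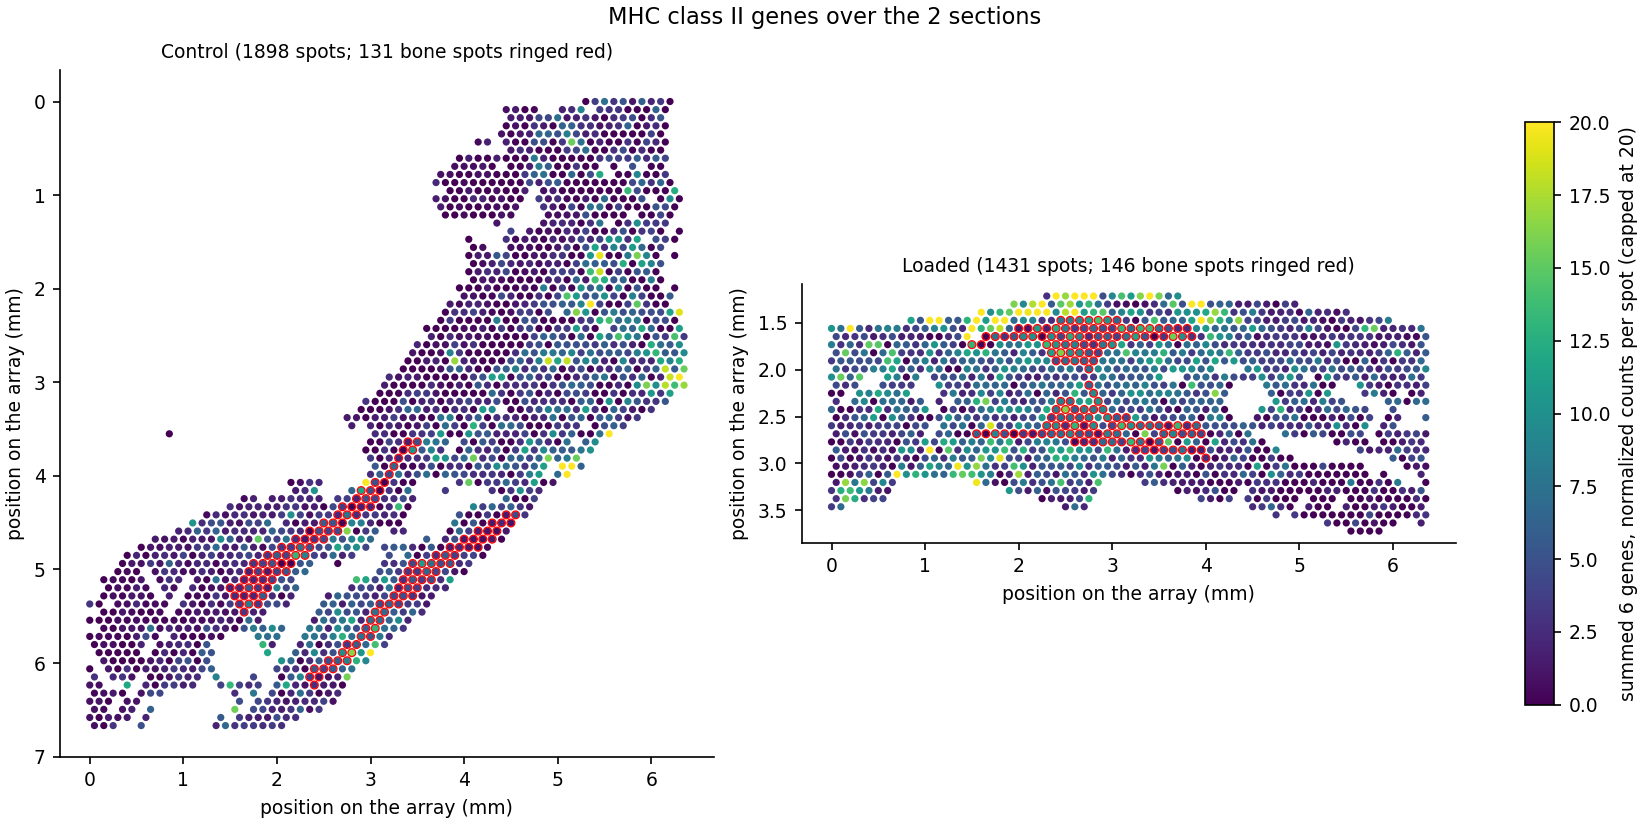
Each point is 1 spot at its position on the array (mm), coloured by the summed level of the 6 genes in normalized counts per spot, capped at 20; bone spots are ringed in red. In the Loaded section (1431 spots) a band of high spots lies along the outer face of the upper bone plate. Of the 144 highest Loaded spots 81 lie in the rest, 47 in the rim and 16 in bone, and of the 190 highest Control spots (of 1898) 152, 28 and 10.

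The chain genes encode the peptide-binding heterodimers, *H2-Aa* the α chain and *H2-Ab1* the β chain of I-A, and *H2-Eb1* the β chain of I-E. *H2-Aa* reached 0.282 normalized counts per spot in Control bone (49 UMIs), 0.263 in the Control rim (77 UMIs) and 0.196 in the Control rest (293 UMIs), against 0.465 (60 UMIs), 0.650 (206 UMIs) and 0.347 (320 UMIs) in the Loaded section. *H2-Ab1* stood at 0.444, 0.495 and 0.303 normalized counts per spot in Control bone, rim and rest (77, 145 and 453 UMIs), and at 0.689, 0.949 and 0.522 in the Loaded section (89, 301 and 481 UMIs). The third chain, *H2-Eb1*, gave 0.369, 0.413 and 0.259 in the Control section (64, 121 and 388 UMIs) and 0.542, 0.927 and 0.495 in the Loaded section (70, 294 and 456 UMIs). All 3 chains had their highest level in the Loaded rim and their lowest in the Control rest. Over blocks of the rim, *H2-Eb1* ran from 0.333 to 0.519 in the Control section and from 0.570 to 1.12 in the Loaded section, without overlap, whereas the blocks of *H2-Aa* (0.102 to 0.363 and 0.264 to 1.05) and of *H2-Ab1* (0.102 to 0.778 and 0.601 to 1.40) overlapped.

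The invariant chain gene *Cd74*, whose product chaperones the chains and also serves as a receptor for the cytokine MIF, gave most of the counts. It held 2.98 normalized counts per spot in Control bone (517 UMIs), 2.91 in the Control rim (851 UMIs) and 1.74 in the Control rest (2605 UMIs). Loaded levels were 4.97 in bone (642 UMIs), 6.48 in the rim (2054 UMIs) and 3.75 in the rest (3452 UMIs). Blocks of the Control rim lay between 2.25 and 4.36 and blocks of the Loaded rim between 4.64 and 8.29, without overlap, while blocks of bone (2.29 to 5.31 and 4.33 to 5.42) overlapped in 1 high Control block. *Cd74* took a share of the summed UMIs of the 6 genes that ran from 67.5% (66.0% to 68.9%) in the Control rest to 72.6% (69.6% to 75.5%) in Loaded bone. These 2 intervals did not overlap, nor did those of the Control and the Loaded rest (71.9%, 70.6% to 73.1%).

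The peptide editor *H2-DMa* and the transactivator *Ciita* were counted rarely. *H2-DMa* stood at 0.104, 0.109 and 0.0481 normalized counts per spot in Control bone, rim and rest (18, 32 and 72 UMIs) and at 0.0697, 0.123 and 0.0554 in the Loaded section (9, 39 and 51 UMIs). *Ciita* stood at 0.0461, 0.0512 and 0.0334 in the Control section (8, 15 and 50 UMIs) and at 0.108, 0.0852 and 0.0478 in the Loaded section (14, 27 and 44 UMIs). The intervals of both genes overlapped between sections in every region, and their blocks overlapped too.

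**Figure D2:**
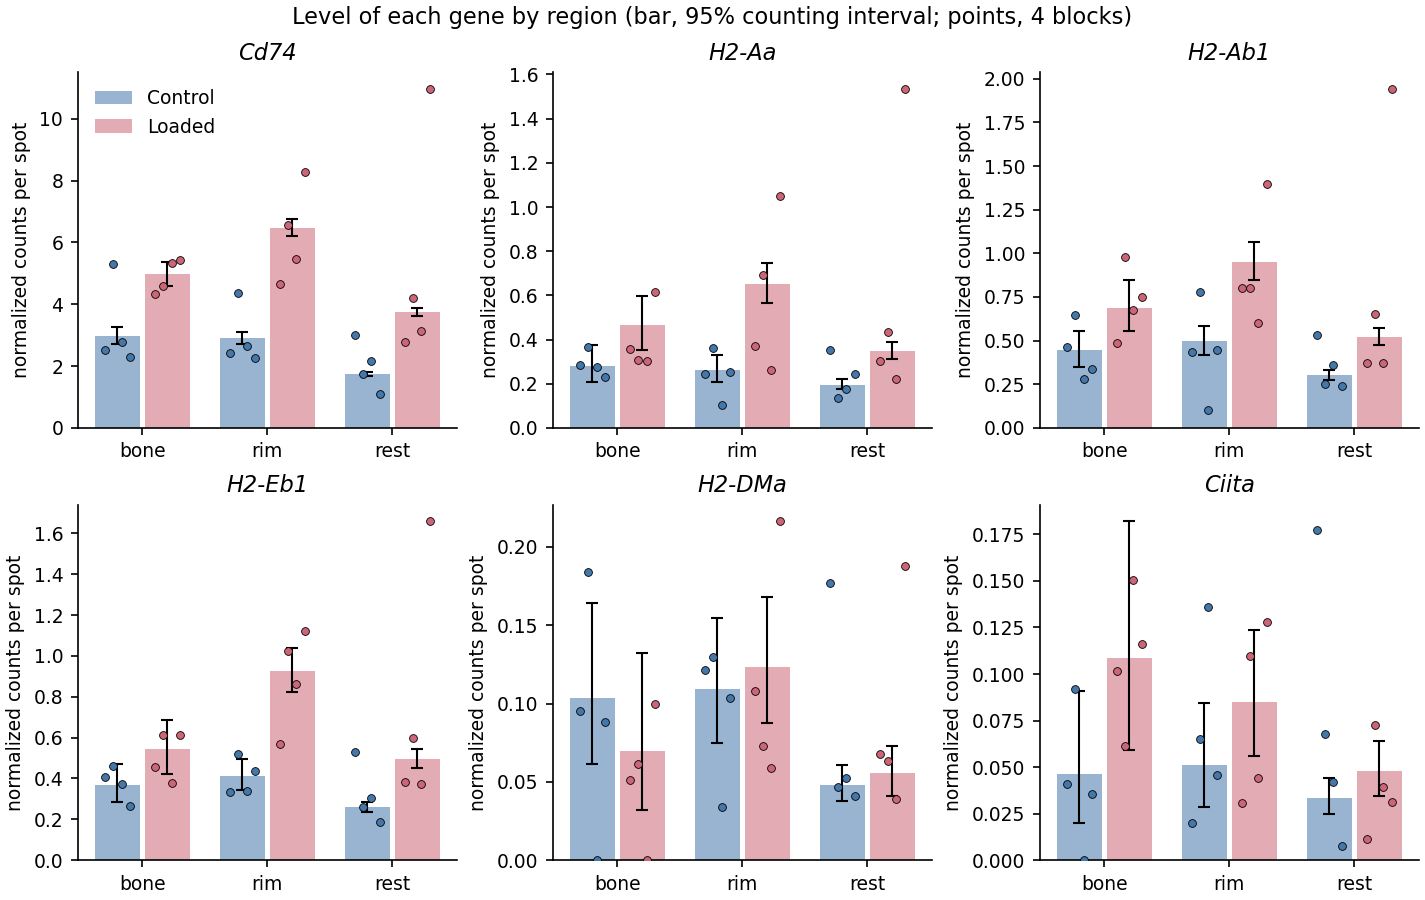
Bars give the level of each gene in normalized counts per spot by region, for the Control (blue) and the Loaded section (red), with 95% counting intervals; points are the 4 blocks of each region. *Cd74* and *H2-Eb1* are the genes whose rim blocks do not overlap between sections, and *H2-DMa* shows no Loaded excess in bone.

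The comparison of Loaded with Control asked how the pathway differed under mechanical loading. A gene was counted as higher or lower when its log2 ratio of levels passed 0.5, the size limit of the study, with no test. Over the rim, 5 of 6 genes were higher in the Loaded section, *H2-Aa* (+1.30, 95% interval 0.92 to 1.70), *H2-Eb1* (+1.17, 0.86 to 1.48), *Cd74* (+1.16, 1.04 to 1.27), *H2-Ab1* (+0.94, 0.65 to 1.23) and *Ciita* (+0.73, −0.23 to 1.75), whereas *H2-DMa* (+0.17, −0.54 to 0.89) was not. For *Cd74* this is a 2.23-fold level. Of all 11704 genes tested in the rim, 20.3% were higher by the same limit, and the median log2 ratio was 1.05 over the 6 genes against 0.00 over all genes. Every Loaded block lay above every Control block for 2 of the 6 genes and for 2.18% of all genes tested.

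With each rim block left out in turn, *Cd74* ranged from +0.95 to +1.44. The lowest value was that without Loaded block B2, the rim block with the highest summed level (12.2 normalized counts per spot). Without it *H2-Eb1* was at +1.02, *H2-Aa* at +0.81 and *H2-Ab1* at +0.58, while *Ciita* was at +0.34 and no longer past the limit, and *H2-DMa* was at −0.47. *Ciita* was also at +0.34 without Control block A1 and at +0.15 with equal weight for every spot, and at +1.80 (0.13 to 3.86) with a rim of 150 µm. Without spots at the edge of the tissue (70 Control and 2 Loaded rim spots) *Cd74* was +1.27 and *H2-Ab1* +0.97. Among spots with under 10% of their UMIs in muscle genes *Cd74* was +0.90, *H2-Aa* +0.98, *H2-Ab1* +0.56 and *H2-Eb1* +1.00.

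In bone the difference was smaller than in the rim for *Cd74* and the 3 chains, and not for *Ciita* and *H2-DMa*. The log2 ratio was +0.74 for *Cd74* (0.57 to 0.91), +0.72 for *H2-Aa* (0.15 to 1.29), +0.64 for *H2-Ab1* (0.18 to 1.10), +0.56 for *H2-Eb1* (0.05 to 1.07) and +1.23 for *Ciita* (−0.12 to 2.69). *H2-DMa* was at −0.57 (−1.91 to 0.66), from 9 UMIs against 18. With 5 genes higher and 1 lower, the background was 30.5% of 10003 genes higher and 20.8% lower, and the medians were 0.68 over the 6 genes and 0.12 over all genes. Every Loaded block lay above every Control block for 0 of the 6 genes and for 3.92% of all genes. With TMM factors 3 genes were higher, *H2-Ab1* (+0.47) and *H2-Eb1* (+0.39) being under the limit. TMM moved the median of all genes by −0.16, and 23.6% of genes were then higher and 27.3% lower. The same 2 genes were under the limit without Control block B2. Without Loaded block B2, *H2-Aa* (+0.24) and *H2-Eb1* (+0.38) were under it. *H2-DMa* was no longer past the limit without Control block A2 or without Loaded block A1 or B1. Among bone spots with a muscle share below 10%, *Cd74* was at +0.58 (0.35 to 0.80). The intervals of the chains then crossed 0: *H2-Aa* +0.72 (−0.07 to 1.54), *H2-Ab1* +0.60 (−0.01 to 1.22) and *H2-Eb1* +0.44 (−0.24 to 1.12), the last under the limit.

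In the rest, 5 of 6 genes were higher in the Loaded section (*Cd74* +1.11, *H2-Eb1* +0.93, *H2-Aa* +0.83, *H2-Ab1* +0.79 and *Ciita* +0.52), with *H2-DMa* at +0.20. Of 15485 genes there, 22.2% were higher. Blocks without overlap were found for 0 of 6 genes, against 1.36% of all genes. These blocks were unequal, from 6 spots (Control A1) to 1113 (Control B1). *Cd74* overlapped through Control A1 alone (3.01, 17 UMIs). Its other Control blocks reached 2.18, and its Loaded blocks began at 2.79. *H2-Ab1* and *H2-Eb1* also overlapped through Control A1 alone, at 3 UMIs each. *H2-Aa*, *H2-DMa* and *Ciita* overlapped in other blocks too. The rests covered unlike distances from bone: 760 of 1514 Control and 233 of 1021 Loaded spots lay beyond 1500 µm. The summed levels beyond 1500 µm were 2.52 and 3.12. The part of distance was not tested. The difference between the sections in the rest was not the same in spots of low and of high muscle share. Among spots of the rest with a muscle share below 10%, 0 of 6 genes passed the limit, and *Cd74* stood at +0.30 (0.18 to 0.41) and *H2-Ab1* at −0.10 (−0.42 to 0.22). In spots at or above that share, the summed level was 1.88 in the Control section and 4.64 in the Loaded section. The median muscle shares of those spots were 35.3% and 25.2%, so that they were not matched, and the part of muscle content was not tested. Counts of genes at a muscle share below 10% or at another rim width, here and further on, are given without a share over all genes. Scaling mattered here as well: with library totals in place of scran factors the median of all genes moved by 0.38, and 44.1% of genes were higher and 7.42% lower, against 22.2% and 18.5% with scran factors.

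**Figure D3:**
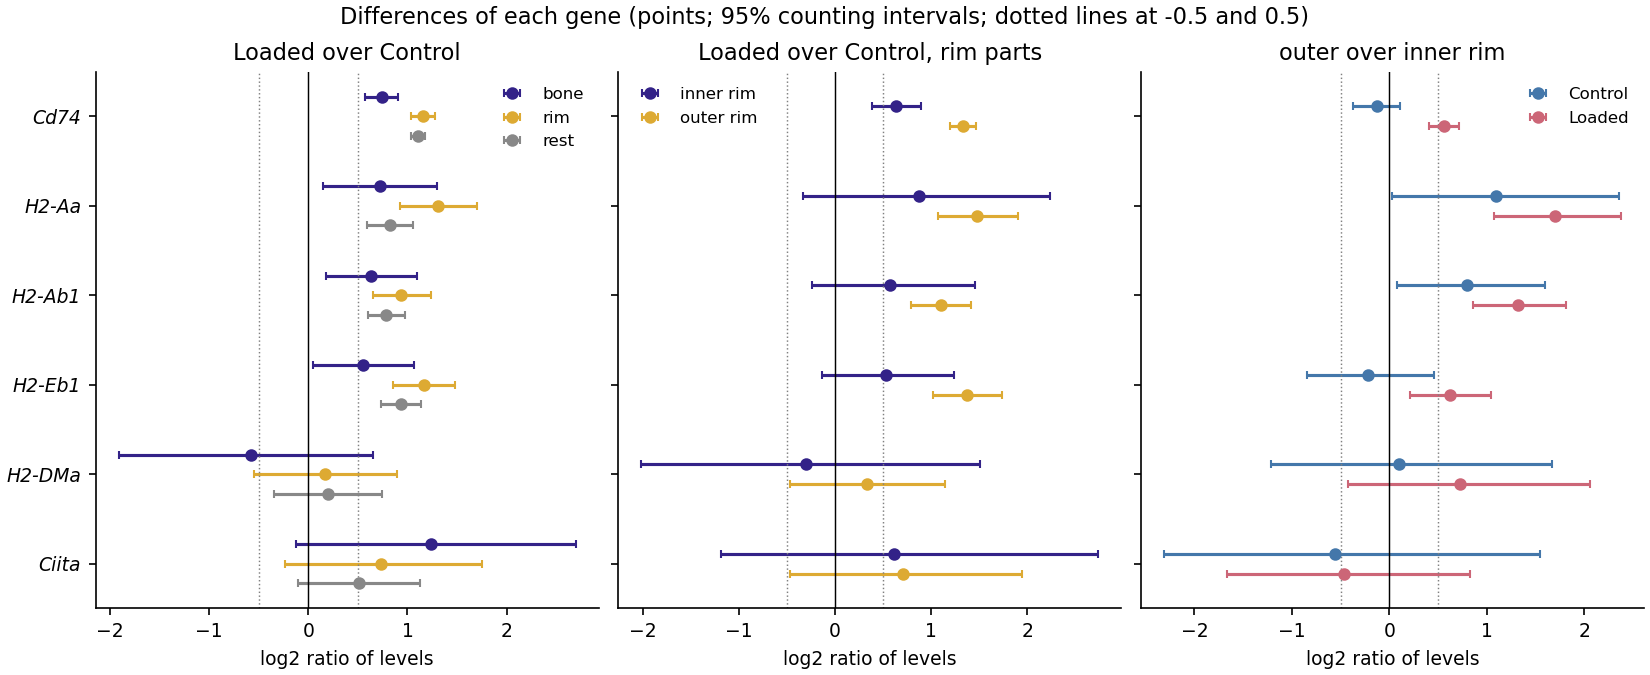
Points are log2 ratios of levels with 95% counting intervals, for Loaded over Control in the 3 regions (left) and in the inner and outer rim (middle), and for outer over inner rim in each section (right); dotted lines mark the limit of 0.5. *Cd74* and the 3 chains lie right of the limit in bone, rim and rest, and lie further right in the outer than in the inner rim, while intervals of *H2-DMa* and *Ciita* cross 0.

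The rim holds both faces of the bone. Inner rim spots have bone spots on both sides across the shaft, within 100 µm along it (104 Control, 107 Loaded). Outer rim spots are all other rim spots (149 Control, 157 Loaded), including any past the ends of the listed bone. The faces are thus set by position alone, and no label gives the tissue that they border. The summed level of the 6 genes was 4.21 in the inner and 4.25 in the outer rim of the Control section, whose intervals (3.70 to 4.77 and 3.99 to 4.52) overlapped. For the Loaded section it was 6.44 in the inner (5.94 to 6.97) and 10.4 in the outer rim (9.98 to 10.8), with no overlap. The difference between the sections was larger on the outer than on the inner face, with intervals that did not meet (+1.29, 1.18 to 1.40, and +0.61, 0.40 to 0.83).

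Over the outer rim the Loaded section was higher by +1.48 for *H2-Aa* (1.07 to 1.90), +1.37 for *H2-Eb1* (1.02 to 1.73), +1.33 for *Cd74* (1.20 to 1.46) and +1.10 for *H2-Ab1* (0.78 to 1.42). *Ciita* stood at +0.71 (−0.47 to 1.95) and *H2-DMa* at +0.33, so that 5 of 6 genes passed the limit, as did 17.8% of all genes. Over the inner rim *Cd74* was higher by +0.64 (0.39 to 0.90), and the intervals of the other 5 genes crossed 0 (*H2-Aa* +0.87, *H2-Ab1* +0.58, *H2-Eb1* +0.53, *Ciita* +0.61, *H2-DMa* −0.30), where 5 of 6 genes passed the limit on their values alone and 26.9% of all genes did. Split by side of the shaft, the summed level of the outer rim was 3.35 and 4.79 in the Control section and 8.63 and 11.8 in the Loaded section, so that both Loaded sides lay above both Control sides. In the same order, the median muscle shares were 28.9% and 7.95% (Control) and 17.3% and 10.5% (Loaded), so that the sides were not matched. The outer rims were cut unequally: 48 Control spots but only 2 Loaded spots lay at the edge of the tissue. The summed level at the edge was 5.31 (Control) and 22.5 (Loaded), against 3.72 and 10.0 inside the tissue.

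Outer over inner rim, the chains and the invariant chain differed among themselves. For Loaded, *H2-Aa* was +1.70 higher on the outer face (1.08 to 2.38) and *H2-Ab1* +1.32 (0.86 to 1.82), against +0.56 for *Cd74* (0.41 to 0.71) and +0.62 for *H2-Eb1* (0.22 to 1.04). The intervals of *H2-Aa* and *H2-Ab1*, the 2 chains of I-A, did not meet that of *Cd74*. In the Control section *H2-Aa* and *H2-Ab1* were again above the other 2 genes, with +1.09 for *H2-Aa* (0.03 to 2.36) and +0.80 for *H2-Ab1* (0.08 to 1.60) against −0.13 for *Cd74* (−0.37 to 0.12) and −0.22 for *H2-Eb1* (−0.85 to 0.46), from only 8 and 18 UMIs of the first 2 in the inner rim. Among spots with a muscle share below 10% the Control values were +1.73 for *H2-Aa*, +1.48 for *H2-Ab1*, +0.26 for *H2-Eb1* (−0.56 to 1.16) and +0.18 for *Cd74* (−0.11 to 0.48), so that the last 2 changed sign. The summed level was then higher on the outer face in Control too, by +0.36 (0.11 to 0.62), against +0.95 (0.80 to 1.10) in Loaded. In all, 5 of 6 genes were higher by the limit in the Loaded section (*H2-DMa* +0.73, −0.42 to 2.06), where 29.5% of all genes were, and 2 of 6 in the Control section, where 29.3% were. *Ciita* was at −0.46 in Loaded and −0.56 (−2.31 to 1.55) in Control, with intervals that crossed 0. The Control value of *Ciita* was lower by the limit, from 11 UMIs outside and 4 inside. The share of all genes lower is not given.

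Markers of other cells differed between the faces as well. The inner rim was rich in marrow cells: the 10 granulocyte genes stood at 16.9 normalized counts per spot there against 1.93 outside in the Control section and at 41.4 against 6.70 in the Loaded section, and the 8 B cell genes at 2.38 against 0.319 and at 1.93 against 0.351. The 12 macrophage genes stood at 2.90 inside and 3.33 outside in the Control section and at 3.14 and 4.76 in the Loaded section. From Control to Loaded, the macrophage sum on the outer face differed by +0.52 (0.38 to 0.65) where the 6 genes differed by +1.29 (1.18 to 1.40), and the part of these cells in the result was not tested.

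With distance from bone the sections took different courses. In the Control section the summed level of the 6 genes was 4.11 within 100 µm of bone, 4.4 from 100 to 200 µm and 3.11 from 200 to 300 µm, then stayed at 2.90 to 2.96 up to 1000 µm. The Loaded level was 8.16 within 100 µm, 10.3 from 100 to 200 µm (9.78 to 10.8) and 9.19 from 200 to 300 µm, then 7.08 up to 500 µm, 5.34 up to 750 µm and 4.35 up to 1000 µm. From 1000 to 1500 µm the levels were 1.65 (Control) and 3.79 (Loaded), and beyond 1500 µm 2.52 (2.40 to 2.66) and 3.12 (2.89 to 3.37). The Loaded level was highest off the bone, and the difference in level between the sections was widest between 100 and 300 µm. Median muscle shares there were close, at 8.77% (Control) and 9.13% (Loaded) up to 200 µm, then 9.67% and 9.64%. Farther out they were not matched, at 21.2% and 10.2% from 300 to 500 µm and 34.8% and 13.1% from 1000 to 1500 µm. The lowest Control level lay in that last bin. The part of muscle content in these courses was not tested.

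**Figure D4:**
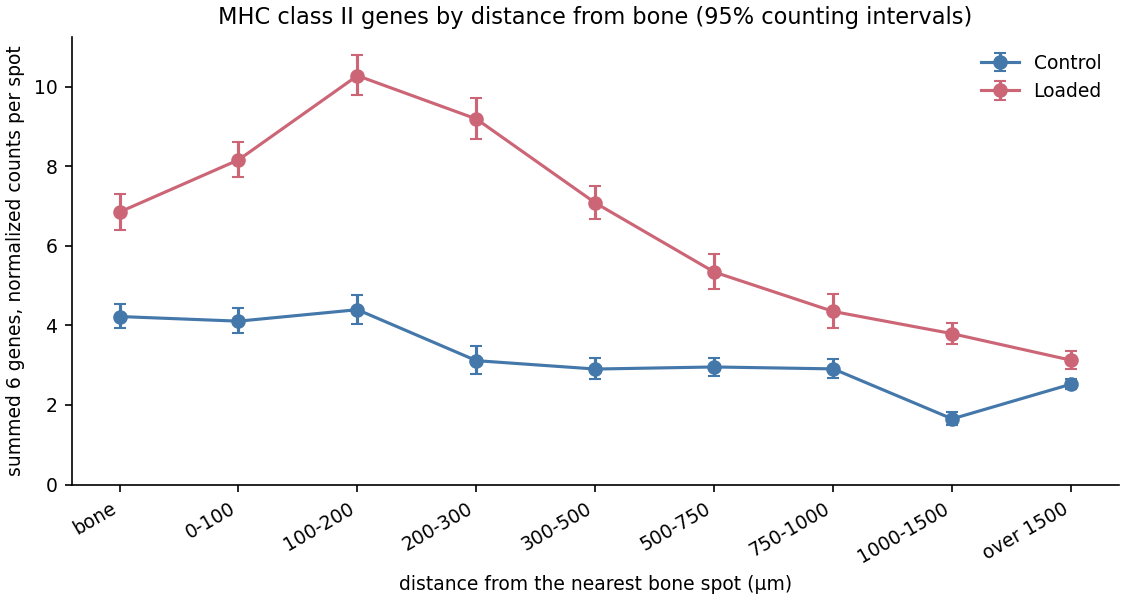
The summed level of the 6 genes (normalized counts per spot, vertical axis) is drawn against the distance from the nearest bone spot (µm, in bins of unequal width) for the Control (blue) and the Loaded section (red), with 95% counting intervals. The Loaded line goes from 6.85 in bone to 10.3 between 100 and 200 µm and is at 3.12 beyond 1500 µm. The Control line runs between 1.65 and 4.4. The bins were not matched for muscle share.

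Within a section, the rim stood above the rest. In the Loaded section all 6 genes passed the limit, from +0.79 for *Cd74* (0.71 to 0.87) to +1.15 for *H2-DMa* (0.51 to 1.78), where 18.8% of 13513 genes did. With a rim of 150 µm, 3 of 6 passed it and *H2-Aa* was at −0.15. Among spots with a muscle share below 10%, 4 of 6 passed it, *Cd74* (+0.45, 0.33 to 0.56) and *Ciita* (+0.13, −0.81 to 1.05) being under it. In the Control section 5 of 6 passed it, from +0.62 for *Ciita* to +1.18 for *H2-DMa*, with *H2-Aa* at +0.43, where 24% of genes did. Among Control spots with a muscle share below 10%, 0 of 6 genes passed the limit, and *Cd74* was at −0.15 (−0.30 to −0.00). Outer spots of the Control rest under that muscle share (482 spots) had a summed level of 5.6, above the inner (4.21) and outer (4.25) rim at all muscle shares. Their median muscle share was 4.92%, against 7.59% and 12.7% on those faces, so that they were not matched. In the Loaded section such spots (329) had a summed level of 6.48, against 6.44 in the inner and 10.4 in the outer rim.

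Bone was compared with the same rest spots, so that both comparisons share them. In the Control section 5 of 6 genes passed the limit (*H2-DMa* +1.11, *Cd74* +0.77, *H2-Ab1* +0.55, *H2-Aa* +0.53, *H2-Eb1* +0.51; *Ciita* +0.46), where 26.6% of genes did. For Loaded, 1 of 6 did, *Ciita* (+1.18, 0.20 to 2.08), where 28.9% of genes did. These counts changed with scaling and with muscle content. Library totals moved the median of all genes by 0.62 in the Control section, where 53.0% of genes were then higher and 9.0% lower against 26.6% and 28.2%, and by 0.26 in the Loaded section, where 5 of 6 genes then passed and 42.1% of all genes were higher and 14.7% lower, against 28.9% and 22.4%. For rim over rest, library totals gave 48.9% higher and 8.83% lower in Control against 24.0% and 22.0%, and 33.4% and 11% in Loaded against 18.8% and 18.6%. Among spots with a muscle share below 10%, 0 of 6 passed in either section, and *Cd74* was at −0.23 (−0.42 to −0.04) in Control.

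For bone over rim in the Control section, the log2 ratios ran from −0.16 to +0.10 with intervals that crossed 0. By the limit, 0 of 6 genes were lower, and 20.9% of all genes were. In the Loaded section 2 of 6 genes were lower in bone than in the rim, *H2-Eb1* (−0.77, −1.17 to −0.39) and *H2-DMa* (−0.82, −2.05 to 0.25, from 9 UMIs in bone), where 16.6% of all genes were. *Cd74* (−0.38), *H2-Aa* (−0.48) and *H2-Ab1* (−0.46) had intervals below 0 without passing the limit. The direction of *H2-Aa* turned with a rim of 150 µm (+0.26, −0.28 to 0.79) and with equal weight for every spot (+0.09), and *Ciita* was at +0.35 (−0.70 to 1.33).

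The share of spots in which *Cd74* was found was higher in the Loaded section. After thinning every spot to 1000 UMIs, *Cd74* was found in 53.4% of Control bone spots (44.5% to 62.2%), 50.2% of rim spots and 34.5% of rest spots, against 74% (65.7% to 81.3%), 76.6% and 53.7% in the Loaded section. Thinning left out 0, 4 and 252 shallower Control spots and 15, 8 and 53 Loaded ones. In rest spots at or above 10% muscle share, Control showed *Cd74* in 22.7% (19.8% to 25.7%) and Loaded in 44.9% (40.8% to 49.0%). Their median depths were 5831 and 3436 UMIs before thinning, against 3478 and 2769 in bone. The median muscle share was 35.3% over all 973 such Control spots and 25.2% over all 620 Loaded ones, so that they were not matched. The median muscle share of Control bone spots, 13.1%, also passed this cut. These rest spots are thus mixed tissue, and give no floor for tissue that lacks the gene. Each *Cd74* share in bone and rim was above that of these rest spots in its own section. Without thinning, the *Cd74* shares were 87.0%, 77.1% and 61.5% in the Control section and 91.8%, 90.2% and 77.8% in the Loaded section.

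The transcripts were unevenly spread over spots. The top 190 Control spots held 51.0% of the UMIs of the 6 genes and the top 144 Loaded spots 48.5%, while 25.4% and 14% of spots held none. Spot depth was uneven too, at 504 to 37148 UMIs in Control and 507 to 22967 in Loaded. Its part in these shares was not tested. The highest Control spot lay in the rest, 700 µm from bone, with 135 UMIs, and the highest Loaded spot in the rim, 200 µm from bone, with 111 UMIs. By level, the top spots took 17.8% of Loaded rim spots, 11% of bone and 7.93% of rest, against 11.1%, 7.63% and 10.0% in the Control section.

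Other class II genes were counted more rarely. Of 5 further chains and editors, 3 reached 10 UMIs in the rim, and *H2-DMb2* (+0.85, 0.01 to 1.73), a β chain of the editor, and *H2-Ob* (+0.76, 0.23 to 1.30), part of the H2-O modulator of that editor, were higher in the Loaded section, with *H2-DMb1* at +0.44 (−0.18 to 1.08). In bone 1 of 3 was higher, where 30.5% of all genes were, and *H2-DMb1*, the β partner of *H2-DMa*, was at +0.01. Of 6 promoter factors 1 was higher and 1 lower in the rim, *Rfx5* (+1.36, 0.21 to 2.64), an X box factor, and *Rfxank* (−1.21, −2.75 to 0.17), its partner. Of 5 endosomal proteases 0 were higher and 1 was lower in the rim, *Ctsd* (−0.59, −0.81 to −0.38), with *Ctss*, which cuts the invariant chain, at +0.41 (0.18 to 0.65). Of 3 co-stimulatory genes 1 was higher and 1 lower, and of 2 genes of class II turnover 0 were either. For all these rim counts, the background was 20.3% of all genes higher and 20.9% lower.

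Among MHC class I genes, which present peptides from inside the cell, 1 of 8 was higher in the Loaded rim (20.3% of all genes were). It was the immunoproteasome subunit *Psmb9* (+1.21, 0.39 to 2.08), with the heavy chain *H2-D1* at +0.30 (0.14 to 0.45) and the light chain *B2m* at +0.41 (0.22 to 0.60). The median of the list was 0.35, against 1.05 for the class II genes. In bone 4 of 8 were higher (30.5% of all genes were), *Psmb9* (+2.23, 0.88 to 3.83), *Psmb8* (+1.67, 0.87 to 2.53), *Tap1* (+1.54) and *Tap2* (+0.75), with a list median of 0.57, against 0.68 for the 6 class II genes there. Interferon gamma, the cytokine best known to induce *Ciita*, was at 0 UMIs in 5 of the 6 regions and at 1 UMI in the Control rest. Of 10 tested genes of its pathway, 4 were higher and 2 lower in the rim, where 20.3% of all genes were higher and 20.9% lower, the former including *Ifngr1* (+1.01, 0.60 to 1.42) and *Irf1* (+0.84, 0.20 to 1.5), with a median of 0.09.

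Markers of the antigen-presenting cells (macrophages, dendritic cells and B cells) and, for comparison, of T cells, plasma cells and granulocytes were as follows. Macrophage genes summed to 3.26, 3.24 and 1.64 normalized counts per spot in Control bone, rim and rest and to 3.72, 4.27 and 2.48 in the Loaded section, and 4 of 12 were higher in the Loaded rim (20.3% of all genes were), among them *Mrc1* (+1.04, 0.59 to 1.51). Of the defining genes *Adgre1* was at 0 in Loaded bone. Dendritic cell genes were sparse, at 0.215 to 0.464 over the 6 regions, with *Flt3* at 0 in 3 of them and *Itgax* in Loaded bone. In the Loaded rim 4 of 6 tested were higher, led by *Clec10a* (+1.29, 0.60 to 2.01), and 1 was lower (−0.53). Of all genes there, 20.3% were higher and 20.9% lower. B cell genes stood at 0.432, 0.728 and 0.562 in Control bone, rim and rest and at 0.891, 0.823 and 0.777 in the Loaded section, with 3 of 7 tested higher in the rim (20.3% of all genes), and T cell genes at 0.0996 to 0.310. Plasma cell genes went from 2.62 in the Control to 4.57 in the Loaded rim. Granulocyte genes, which mark cells that carry little class II, were 10 of 10 higher in the rim (20.3% of all genes), from 4.88 to 17.1. The part of these cells in the results above was not tested.

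Likeness across single spots was weak. Pearson correlations of log2(1 + normalized count) between pairs of the 6 genes ran from 0.00 to 0.29 over 1898 Control and 1431 Loaded spots, which in counts this sparse is no finding. Among 4857 genes found in at least 10% of spots of each section, those most like the summed 6 genes by the lower of both correlations were *Actb*, *Tmsb4x*, *H2-D1*, *Clta*, *Kctd12*, *Apoe*, *Zyx* and *Itm2b*, at 0.25 or less, where spots of a section share library and position. In the rim *Actb* (+1.09) and *Tmsb4x* (+0.93) were higher in the Loaded section, while *Apoe* (−0.21) and *Itm2b* (−0.17) were not.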

How the data were processed

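Spatial gene expression was measured in 1 Control and 1 Loaded femur section. The authors aligned and counted the probe reads with Space Ranger (2.0.0), and the deposited values are raw counts of UMIs per gene and spot, with no normalization. The submitters' processing notes name mm10, R 4.3.1 and Seurat. Both sections share 557 barcodes, all at the same grid position, as the array's barcodes are fixed. Bone barcodes were taken from the study's supplementary barcode list.

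From these counts, spots with under 500 UMIs or 250 genes were left out (64 Control, 5 Loaded), as in the study's methods, and scran size factors (R 4.3.3, scran 1.30.0) were computed over both sections. Log2 ratios of summed counts over summed size factors were taken for genes with at least 10 UMIs, and for all genes the same way to give the background. A gene at 0 was set to 3 UMIs as a bound. The study's test over spots was not used, since spots of a section are not replicates. Intervals are exact Poisson, binomial and conditional binomial (Python 3.11.15, scipy 1.17.1, numpy 2.4.6), and the ratio and its interval were tested on simulated Poisson counts. Those counts hold counting error only, so that the simulation does not cover the spread between spots or blocks. TMM factors came from edgeR 4.0.16, and figures from matplotlib 3.10.9. UMI depth per kept spot was 504 to 37148 (median 2289) in the Control and 507 to 22967 (median 2638) in the Loaded section, which limits single spots to a few counts of each gene. Promoters came from RefSeq.

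The genes and the 18 gene lists were chosen with earlier results of these data known. Named genes were all 6 genes, list genes singled out in the text after their values were seen, and the 8 genes most like them. Of the listed symbols, 5 were not found under those names. The alternatives were other scalings, rim widths of 150 and 350 µm, spots with a muscle share below 10%, other UMI minimums, equal weight for every spot and blocks left out; the minimum of 1000 UMIs, the blocks of the rim, the edge of the tissue, and the sides and faces of the rim by gene were added after seeing the data.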

Additional observations from a re-analysis of the deposited data

Results flagged for a closer look

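Among the contrasts of bone, rim and rest, values of opposite sign under the same contrast were found for 4 of the 6 genes. Most of these values had intervals that crossed 0. With 1 section per group the difference between the values was not tested. The share of all genes with such a change of sign is not given. Bone over rim, *Cd74* was at +0.0353 (−0.13 to 0.19) in the Control and −0.38 (−0.51 to −0.25) in the Loaded section. The Control value was −0.25 without Control bone block A2 and −0.07 at a muscle share below 10%. *H2-Aa* was at +0.10 (−0.45 to 0.64) and −0.48 (−0.92 to −0.06). Its Loaded value was +0.26 with a rim of 150 µm and +0.09 with equal weight for every spot. *Ciita* was at −0.15 (−1.60 to 1.18) and +0.35 (−0.70 to 1.33). Loaded over Control, *H2-DMa* was at −0.57 (−1.91 to 0.66) in bone, +0.17 (−0.54 to 0.89) in the rim and +0.20 (−0.34 to 0.74) in the rest. The rim value was −0.47 without Loaded rim block B2. Alternatives aside, of the values above only *Cd74* and *H2-Aa*, bone over rim in Loaded, had intervals that did not cross 0. The faces of the rim gave further changes of sign. Outer over inner rim, *H2-Eb1* was at −0.22 (−0.85 to 0.46) in Control and +0.62 (0.22 to 1.04) in Loaded. *Cd74* was at −0.13 (−0.37 to 0.12) and +0.56 (0.41 to 0.71). At a muscle share below 10% the Control values were +0.26 and +0.18, with intervals that crossed 0. Loaded over Control, *H2-DMa* was at −0.30 in the inner and +0.33 in the outer rim, with intervals that crossed 0.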

How the results depend on the processing

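Over the 16 alternatives run for bone and the 18 for the rim, Loaded over Control stayed above 0 in bone and rim for *Cd74*, *H2-Aa*, *H2-Ab1*, *H2-Eb1* and *Ciita*, with *Cd74* from 0.58 to 1.03 in bone and from 0.90 to 1.44 in the rim. This holds for the values and not for their intervals. In bone at a muscle share below 10%, the intervals of *H2-Aa*, *H2-Ab1*, *H2-Eb1* and *Ciita* crossed 0.

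Loaded over Control, the count of genes higher in bone went from 5 to 3 with TMM factors and without Control bone block B2 or Loaded bone block B2, and the count lower from 1 to 0 without Control block A2, Loaded block A1 or B1, with at least 50 UMIs and with equal weight for every spot. In the rest the count higher went from 5 to 3 with a rim of 350 µm, 0 at a muscle share below 10% (*H2-Ab1* −0.10) and 3 with equal weight (*Ciita* −0.25). For bone over rest in Control, 5 higher became 3 (TMM), 2 (rim 150 µm), 0 (low muscle, with 1 lower), 1 (without block A2) and 3 (equal weight), and at low muscle *Ciita*, the gene lower by the limit, was at −0.83, and *Cd74*, *H2-Ab1* and *H2-Eb1* at −0.23, −0.33 and −0.33. In Loaded, 1 became 5 (library totals), 3 (totals without the 20 most abundant genes), 6 (rim 350 µm), 0 (low muscle), 3 (without block A1), 4 (without the tissue's edge) and 3 (equal weight). For rim over rest in Control, 5 became 0 (low muscle; *Cd74* −0.15, *H2-Ab1* −0.0010, *H2-Eb1* −0.15, *Ciita* −0.31) and 1 (equal weight), with 1 lower at a rim of 150 µm (*Ciita* −0.57); in Loaded, 6 became 3 at 150 µm (*H2-Aa* −0.15) and 4 at low muscle. For bone over rim in Control, 0 higher became 2 (rim 150 µm) and 1 (equal weight), and 0 lower became 1 (low muscle, without block A2, equal weight); in Loaded, 2 lower became 4 (TMM, without block B2) and 1 (at least 50 UMIs, equal weight). With TMM factors 24.7% of all genes were higher for bone over rest in Control, and 21.5% were lower for bone over rim in Loaded. Without the 20 most abundant genes, 32.7% were higher for bone over rest in Loaded. Apart from the scalings, these counts are given without a share over all genes, so that a changed count cannot be set against that background. The cause of the changes was not tested. No paired analysis was possible because each group is 1 section and no test was run. The alternatives with the rim's blocks, the tissue's edge and at least 1000 UMIs were chosen after seeing the data. *H2-DMa* and *Ciita* had 8 to 72 UMIs a region, and their intervals in Loaded over Control crossed 0 in each.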
